A study of Mus musculus with 10 samples.

Results

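The BCL2 family decides whether a cell keeps its mitochondria intact or dies by apoptosis, and 10 of its genes were followed in the RNA sequencing tables of mouse neutrophils with and without vimentin. The genes were taken by symbol: Mcl1, Bcl2, Bcl2l1, Bcl2a1a, Bcl2a1b, Bcl2a1d, Bcl2l11, Bid, Bax and Bak1. All 10 were among the 13091 genes of the deposited tables, so no member was lost to a filter on low values. The neutrophils were grown from bone marrow progenitors of 129-SVEV mice that had been immortalized with HoxB8, a transcription factor that blocks maturation for as long as estrogen is present, and they matured in culture after estrogen was withdrawn. The progenitors were expanded from single cells, and the labels give 2 Vim+/+ and 3 Vim-/- biological replicates, the latter lacking the intermediate filament protein vimentin. The Vim+/+ replicates are numbered 1 and 3, and the series has no Vim+/+ replicate 2. The labels name the second genotype a vimentin KD, whereas the methods describe progenitors from knockout animals. Each replicate number has 1 unstimulated library and 1 library after 1 h with 25 ng/mL LPS, a bacterial cell wall component that neutrophils sense through TLR4, so there were 10 libraries in 4 groups. The sample descriptions repeat 1 further number per replicate in both states, but they do not say that it marks a clone. A difference between the genotypes rests on 2 against 3 such replicates, and a change that a clonal line carried for another reason cannot be told apart from one of vimentin.

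BCL2 family proteins act by binding each other at the mitochondrial outer membrane. The pro-survival members (MCL1, BCL2, BCL-XL and A1) hold the effectors BAX and BAK in check, and the BH3-only members (among them BIM and BID) free or activate the effectors, which then open the membrane and release cytochrome c. Neutrophils are short-lived cells whose survival leans on MCL1, a protein that turns over quickly, and on A1, which inflammatory signals through NF-κB raise in many leukocytes. Mature neutrophils are known to hold little BCL2.

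The deposited tables held, for each gene, 1 mean normalized count over all libraries (baseMean) and a fitted log2 fold change with its standard error for each of 4 comparisons. They held no value per library, so the depth is unknown and the spread is shown through the standard errors alone. The log2 fold changes of each member closed around the 4 groups, as they do when they come from 1 model, and they can therefore be read as 4 group levels. A gene passed where the DESeq2 adjusted p in the deposited table was under 0.05. Vim, the deleted gene, was lower in Vim-/- neutrophils by a log2 fold change of -13.56 unstimulated and -12.44 after LPS, as its labels say. All 15 neutrophil markers were present, from Ly6g at a baseMean of 11373 to S100a9 at 1290830. Of these, 6 were higher in unstimulated Vim-/- neutrophils (Camp, Itgam, Mmp8, Ngp, Cxcr2 and Lcn2) and 2 after LPS (Camp and Ngp). Of all genes, 12.6% and 6.68% passed as higher in these comparisons. No neutrophil marker passed as lower. Unstimulated log2 fold changes were negative for Mpo (-1.35), Elane (-0.69) and Cebpe (-0.31) and positive for the other 12. Markers of other cells were also seen: 7 of 8 for eosinophils, basophils and mast cells, with a summed baseMean of 445451, and 7 of 10 for monocytes and macrophages, with a sum of 47911 and Csf1r and Adgre1 lower in both. Only Mrc1 of the latter was higher, after LPS. Of the former, Cpa3 and Siglecf were lower in Vim-/- neutrophils in both states, while Prg2 and Epx, which make up most of the sum, did not pass and had positive log2 fold changes, 0.29 and 0.67 unstimulated and 0.66 and 1.01 after LPS. Of 9 lymphocyte markers 3 were listed (sum 1283; Nkg7 and Cd3d lower in both states, Cd79a after LPS) and of 5 erythroid markers 0. Of the 8 progenitor markers 7 were listed, Hoxb8 being higher and Cd34 lower in both states, with Gata2 lower unstimulated and Myb lower after LPS. HoxB8 was also introduced to immortalize the lines, so Hoxb8 counts may include that copy, and its share is not known. None of these marker genes passed with LPS in either genotype, and their part in the genotype differences below was not tested.

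Per kilobase of its longest transcript, Mcl1 was the most abundant member, with 17493 normalized counts per kb. This placed it above 98.2% of the 12046 genes with a known length, whose median was 310. The effectors came next, at 7745 for Bax and 6095 for Bak1. Bcl2l11, which encodes BIM, stood at 2582, Bcl2a1b at 2131 and Bcl2l1, which encodes BCL-XL, at 1713. Lower in this order were Bid at 939, Bcl2a1a at 819 and Bcl2a1d at 177. Bcl2 was last, at 63.2, above 23.5% of genes. Among the pro-survival genes the range from Mcl1 to Bcl2 was thus wide, with A1 spread over 3 genes whose values ran from 177 to 2131. These are means over all 10 libraries, pooled over groups in which some members differed: the fitted level of Bcl2a1b spanned 2.94 on the log2 scale between groups and that of Bcl2l1 at most 0.20. The order can therefore differ from group to group, and as the means carry no error, whether neighbours in it differ cannot be said.

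The A1 protein is encoded in mice by near-identical gene copies on chromosome 9 (GRCm38). Bcl2a1d lies at chr9:88723288-88731850 on the minus strand, Bcl2a1a at chr9:88956920-88962416 and Bcl2a1b at chr9:89199273-89207838, both on the plus strand. The RefSeq sequences of the 250 bases before each start (GRCm38.p6) are shown because the 3 genes had positive log2 fold changes in every comparison. Capitals mark the matches to TGANTCA, a loose AP-1 pattern that accepts any central base, and to the PU.1 motif AGGAAGT, searched on both strands.
Bcl2a1a, chr9:88956670-88956919, plus strand: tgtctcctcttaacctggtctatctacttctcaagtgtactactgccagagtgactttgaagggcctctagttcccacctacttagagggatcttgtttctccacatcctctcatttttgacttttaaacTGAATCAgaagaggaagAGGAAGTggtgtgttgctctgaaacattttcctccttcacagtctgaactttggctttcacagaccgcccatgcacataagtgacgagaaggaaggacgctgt
Bcl2a1b, chr9:89199023-89199272, plus strand: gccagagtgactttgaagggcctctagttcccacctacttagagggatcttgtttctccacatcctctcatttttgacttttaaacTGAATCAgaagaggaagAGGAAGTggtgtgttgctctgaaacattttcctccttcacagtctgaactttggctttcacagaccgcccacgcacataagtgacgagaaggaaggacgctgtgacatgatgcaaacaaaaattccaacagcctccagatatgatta
Bcl2a1d, chr9:88731851-88732100, minus strand: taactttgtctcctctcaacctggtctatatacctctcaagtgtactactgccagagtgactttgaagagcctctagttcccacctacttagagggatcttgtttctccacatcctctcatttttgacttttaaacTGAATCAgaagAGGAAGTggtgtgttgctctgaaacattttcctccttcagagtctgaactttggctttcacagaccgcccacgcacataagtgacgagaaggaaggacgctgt

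Over their aligned bases these stretches were 97.5% to 99.5% identical. Each held 1 match to the loose AP-1 pattern, TGAATCA in all 3, followed by 1 PU.1 match that did not overlap it. The match to the AP-1 pattern began 120, 164 and 114 bases before the annotated start of Bcl2a1a, Bcl2a1b and Bcl2a1d. The PU.1 match began 103, 147 and 103 bases before the same starts. The annotated start of Bcl2a1b lies further downstream in the aligned sequence. Of 32851 mouse promoters searched in the same way, 6.75% held the loose AP-1 pattern and 7.69% the PU.1 motif. The NF-κB motif GGGNNNNNCC, found in 45.8% of promoters, had no match in these 3 stretches, nor had the STAT, C/EBP and TATA motifs tried, and this says nothing about sites outside the window. The transcripts were as alike as the promoters, with 98.2% of aligned bases the same for Bcl2a1a and Bcl2a1b, 98.8% for Bcl2a1a and Bcl2a1d and 99.1% for Bcl2a1b and Bcl2a1d. Of all stretches of 150 bases, 28.2% in the Bcl2a1a transcript, 14.2% in Bcl2a1b and 30.3% in Bcl2a1d occurred unchanged in another copy. Reads from such stretches could be counted under any copy or dropped, and how the authors' counting treated them is not given in the sources used here, so the split between the 3 genes is uncertain.

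LPS raised 3 of the 10 genes within 1 h in Vim+/+ neutrophils, namely Bcl2a1b, Bcl2l11 and Mcl1, and lowered none. In bulk libraries fewer cells of a type and less RNA per cell cannot be told apart. Across all genes tested in this comparison 1.8% passed as higher and 0.374% as lower. In Vim-/- neutrophils LPS raised 1 of the 10, Bcl2a1b, and again lowered none, where 1.51% of all genes passed as higher and 0.698% as lower. The median log2 fold change of the 10 genes was 0.15 in Vim+/+ and 0.30 in Vim-/- neutrophils, beside 0.01 and -0.02 over all genes. Between the genotypes, 4 members were higher and 3 lower in unstimulated Vim-/- neutrophils, where 12.6% of all genes passed as higher and 6.15% as lower. After LPS, 3 members were higher (6.68% of all genes) and 1 was lower (4.35%). The member medians, 0.08 and 0.03, lay close to those of all genes, 0.08 and 0.03, because genes that were higher and genes that were lower offset each other.

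**Figure D1:**
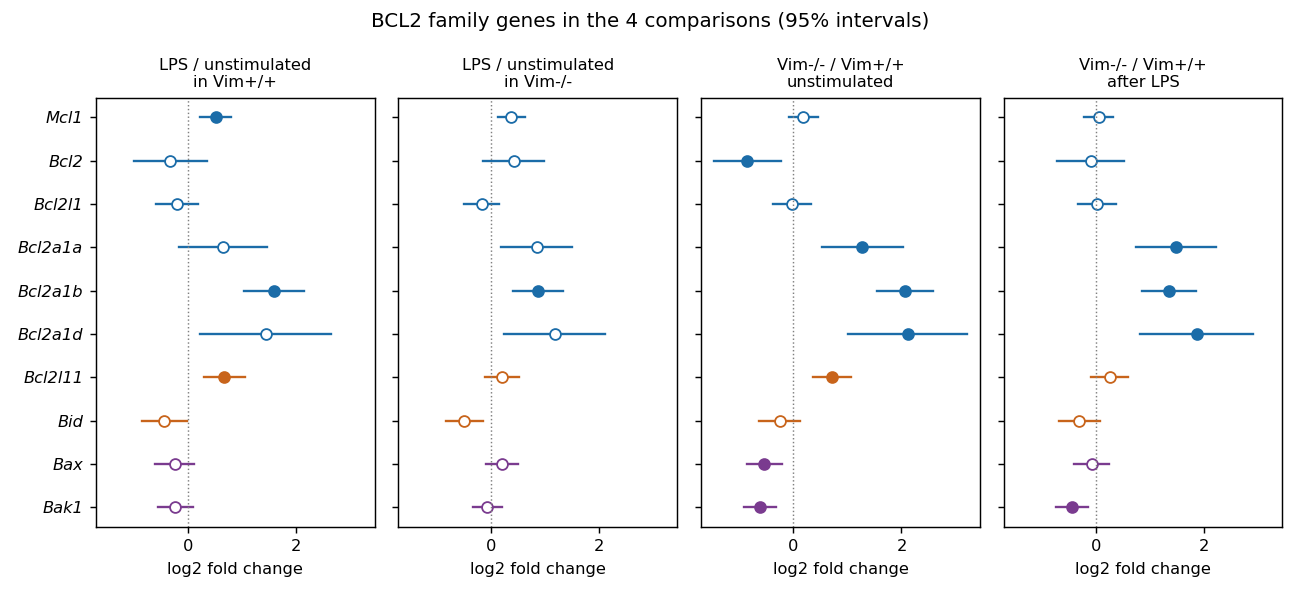
Log2 fold change (x axis) of each BCL2 family gene (rows) in the 4 comparisons (panels), with 95% intervals from the standard errors. Filled points have an adjusted p under 0.05; blue is pro-survival, orange BH3-only and purple effector. The 3 Bcl2a1 genes are filled and to the right in both genotype panels, and Bak1 is filled and to the left in both.

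Among the pro-survival genes, Bcl2a1b had the lowest adjusted p of the 10 members in each of the 4 comparisons. With the unstimulated Vim+/+ group set to 0 on the log2 scale, its fitted level was 1.59 in Vim+/+ neutrophils after LPS, 2.06 in unstimulated Vim-/- neutrophils and 2.94 in Vim-/- neutrophils after LPS. LPS raised it 3.01-fold in Vim+/+ neutrophils (95% interval 2.04 to 4.44; adjusted p = 4.96e-06) and 1.83-fold in Vim-/- neutrophils (1.34 to 2.52; adjusted p = 0.0105). In unstimulated cells it was 4.18-fold higher in Vim-/- than in Vim+/+ neutrophils (2.92 to 5.98; adjusted p = 7.39e-13), and after LPS 2.55-fold higher (1.80 to 3.62; adjusted p = 8.75e-06). Unstimulated Vim-/- neutrophils thus stood above LPS-treated Vim+/+ neutrophils by 0.48 in fitted level, a difference that no deposited comparison tests. Bcl2a1b was the one member that passed in all 4 comparisons, and its call remained under each alternative tried except a threshold of 1 on the log2 fold change, which ended the call with LPS in Vim-/- neutrophils.

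Bcl2a1a and Bcl2a1d had the same order of group levels. Bcl2a1a stood at 0.64 in Vim+/+ neutrophils after LPS, at 1.28 in unstimulated Vim-/- neutrophils and at 2.13 in Vim-/- neutrophils after LPS. For Bcl2a1d, the least abundant copy with a baseMean of 153, the same levels were 1.43, 2.11 and 3.29. Between the genotypes both passed: Bcl2a1a exceeded its Vim+/+ level 2.43-fold in unstimulated Vim-/- neutrophils (1.45 to 4.06; adjusted p = 0.00708) and 2.80-fold higher after LPS (1.68 to 4.66; adjusted p = 0.00192), and Bcl2a1d was 4.32-fold higher unstimulated (2.01 to 9.29; adjusted p = 0.00220) and 3.63-fold higher after LPS (1.76 to 7.51; adjusted p = 0.00835). With LPS neither passed. The log2 fold changes of Bcl2a1a were 0.64 (SE 0.413) in Vim+/+ and 0.85 (SE 0.338) in Vim-/- neutrophils, and those of Bcl2a1d were 1.43 (SE 0.620) and 1.18 (SE 0.475), each positive but with adjusted p between 0.286 and 0.604. The 4 genotype calls of these copies were lost when the Wald statistics were divided by their own robust spread, which was 1.83 unstimulated and 1.5 after LPS where 1 would be the value of a null table.

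Between the unstimulated genotypes, every listed gene from Mthfsl to Bcl2a1b was higher in Vim-/- neutrophils. Besides the 3 A1 copies these were Mthfsl, beside Bcl2a1d, by a log2 fold change of 0.87 (adjusted p = 0.0338), and the sparse transcript 9330159M07Rik between Bcl2a1d and Bcl2a1a, by 5.31 (baseMean 41.8, adjusted p = 0.00191). Farther out, Nt5e, which encodes the ectonucleotidase CD73, was higher by 5.0 (adjusted p = 3.81e-08). The other neighbours within 500000 bases, Snx14, Syncrip, Snhg5, Zfp949, Mthfs and Tmed3, did not pass. After LPS Nt5e was higher by 5.23 (adjusted p = 1.56e-08) and 9330159M07Rik by 8.30 (adjusted p = 0.000117), Mthfsl stood at 0.77 (adjusted p = 0.0966), and Zfp949 was lower by a log2 fold change of -0.66 (adjusted p = 0.00657). Over the 553 genes of chromosome 9 the median was 0.12 unstimulated and 0.06 after LPS. Whether the region differs between the cell lines for a reason other than vimentin was not tested.

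Mcl1, the most abundant member, rose with LPS in Vim+/+ neutrophils by 1.43-fold (95% interval 1.17 to 1.74; adjusted p = 0.0276). In Vim-/- neutrophils the fold was 1.3 (1.10 to 1.54) and did not pass (adjusted p = 0.0790). Its fitted levels after LPS were nearly the same in both genotypes, 0.51 in Vim+/+ and 0.56 in Vim-/- neutrophils, with 0.18 in unstimulated Vim-/- neutrophils. Neither genotype comparison passed: the log2 fold change was 0.18 (SE 0.137) unstimulated and 0.05 (SE 0.136) after LPS, and the 95% intervals reached at most 0.45. The LPS calls turned with the spread of the statistics. Divided by their robust spread, which was 1.17 in Vim+/+ and 0.947 in Vim-/- neutrophils, they left Mcl1 without a call in Vim+/+ and gave it one in Vim-/- neutrophils.

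Bcl2, the founding pro-survival gene and the last in the pooled order per kilobase, was lower in unstimulated Vim-/- neutrophils by a log2 fold change of -0.85 (SE 0.317; adjusted p = 0.0409), which is 1.80-fold lower. Rescaling the statistics by their robust spread ended this call. After LPS the difference was -0.10 (SE 0.316; adjusted p = 0.911). Its fold change with LPS was -0.32 (SE 0.341) in Vim+/+ and 0.43 (SE 0.288) in Vim-/- neutrophils, and neither passed. Bcl2l1, which encodes BCL-XL, passed in none of the 4 comparisons. Its log2 fold changes were -0.20 and -0.17 with LPS in Vim+/+ and Vim-/- neutrophils and -0.02 and 0.02 between the genotypes, with standard errors of 0.164 to 0.195, so that changes past 0.59 in size lay outside all 4 of its 95% intervals.

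**Figure D2:**
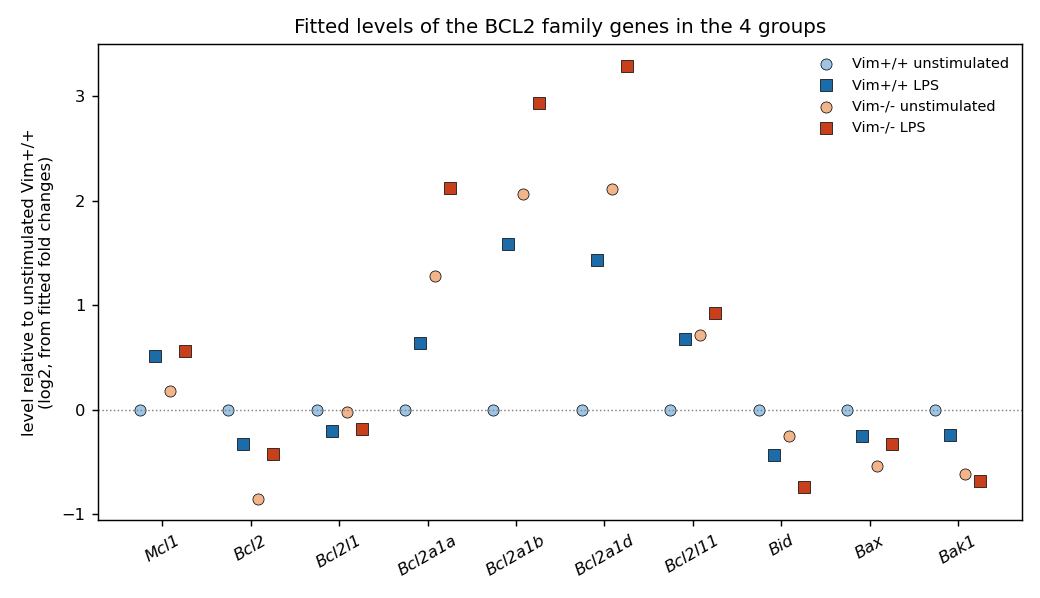
Fitted level of each BCL2 family gene (x axis) in the 4 groups, on the log2 scale relative to unstimulated Vim+/+ neutrophils (y axis), chained from the fitted fold changes and drawn without error. Circles are unstimulated and squares LPS-treated groups. The Bcl2a1 genes climb in the order Vim+/+ unstimulated, Vim+/+ LPS, Vim-/- unstimulated, Vim-/- LPS. Bak1, Bax, Bcl2, Bcl2l1 and Bid lie below 0 in the 3 groups other than unstimulated Vim+/+.

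Of the BH3-only genes, Bcl2l11 passed in 2 comparisons and Bid in none. Bcl2l11, which encodes BIM, rose with LPS in Vim+/+ neutrophils by 1.59-fold (95% interval 1.23 to 2.06; adjusted p = 0.0220). It was also higher in unstimulated Vim-/- than Vim+/+ neutrophils, by 1.64-fold (1.29 to 2.09; adjusted p = 0.000727). In Vim-/- neutrophils LPS gave a fold of 1.16 (0.935 to 1.44; adjusted p = 0.981), and after LPS the genotypes stood 1.2-fold apart (0.943 to 1.52; adjusted p = 0.413). Its fitted levels were therefore 0.67, 0.72 and 0.93 in Vim+/+ LPS, Vim-/- unstimulated and Vim-/- LPS neutrophils, all above the unstimulated Vim+/+ group. Bcl2l11 has a long transcript, of 5036 bases, and longer genes had higher fold changes in these comparisons, with a Spearman rho between length and log2 fold change of 0.294 with LPS in Vim+/+ neutrophils and 0.293 between unstimulated genotypes across 12046 genes, which are not independent replicates. Centred on genes of like length, its log2 fold change was 0.55 with LPS and 0.47 between the genotypes, and neither passed, nor did either with the statistics divided by their robust spread.

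Bid, whose protein carries death receptor signals to the mitochondria once caspase-8 has cut it, had negative log2 fold changes in all 4 comparisons. They were -0.44 (SE 0.208) and -0.49 (SE 0.175) with LPS in Vim+/+ and Vim-/- neutrophils and -0.25 (SE 0.193) and -0.31 (SE 0.193) between the genotypes. The 2 LPS values had an unadjusted p under 0.05, 0.0364 and 0.0049, but no comparison passed (adjusted p 0.159 to 0.401).

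Both effectors were lower in unstimulated Vim-/- neutrophils. Bax was 1.45-fold lower, a log2 fold change of -0.54 (SE 0.167; adjusted p = 0.0114), and Bak1 was 1.53-fold lower, at -0.62 (SE 0.151; adjusted p = 0.000711). After LPS Bak1 remained lower, by 1.36-fold (log2 fold change -0.44, SE 0.151; adjusted p = 0.0337), while Bax stood at -0.08 (SE 0.167; adjusted p = 0.856). Divided by the robust spread, none of the 3 effector calls held. LPS itself moved neither gene past the threshold. For Bax the fold changes with LPS were -0.25 (SE 0.180) in Vim+/+ and 0.21 (SE 0.152) in Vim-/- neutrophils, and for Bak1 they were -0.24 (SE 0.163) and -0.06 (SE 0.137). The Bax transcript is short, 1100 bases against a median of 3200, and centred on genes of like length its unstimulated difference was -0.27 and did not pass. Bak1 lies on chromosome 17, at chr17:27019812-27028627, whose 539 genes had a median log2 fold change between the genotypes of -0.33 unstimulated and -0.28 after LPS. Chromosome 7, which holds Bax, had medians of -0.0041 and 0.0079. The part of the chromosome 17 shift in the Bak1 difference was not tested.

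The response to LPS was not shown to differ between the genotypes for any of the 10 genes. The difference of the log2 fold changes, Vim-/- minus Vim+/+, passed a normal test for 0 of 10 members, and 0 had an unadjusted p under 0.05, whereas 10 of 13091 genes (0.0764%) passed. The members nearest to the threshold were Bax at 0.46 (95% interval -0.0031 to 0.92; adjusted p = 0.825), Bcl2a1b at -0.71 (-1.44 to 0.01; adjusted p = 0.833), Bcl2l11 at -0.46 (-0.94 to 0.03; adjusted p = 0.860) and Bcl2 at 0.75 (-0.12 to 1.63; adjusted p = 0.893). For Mcl1 the difference was -0.13 (-0.51 to 0.25), for Bcl2l1 0.04 (-0.46 to 0.54), for Bak1 0.17 (-0.24 to 0.59) and for Bid -0.06 (-0.59 to 0.48). For Bcl2a1a the difference was 0.21 (-0.84 to 1.25) and for Bcl2a1d -0.25 (-1.78 to 1.28). The intervals of Bcl2a1a, Bcl2a1d, Bcl2a1b and Bcl2 were too wide to bound a difference within a factor of 2. The standard error took the 2 responses as independent, since the tables hold no covariance.

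**Figure D3:**
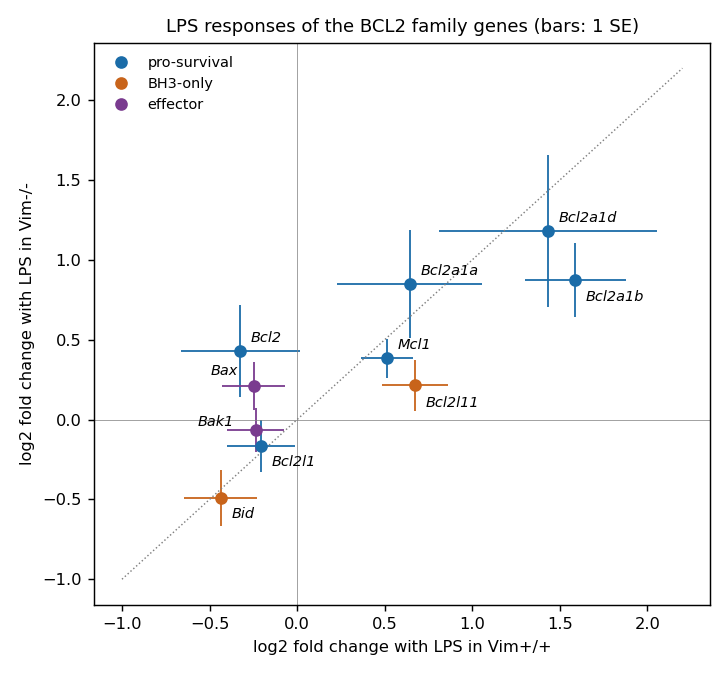
Log2 fold change with LPS in Vim+/+ (x axis) against that in Vim-/- neutrophils (y axis) for the 10 BCL2 family genes, with bars of 1 standard error; the dotted line marks equal responses. Bcl2a1b and Bcl2l11 lie below the line and Bax and Bcl2 above it, none with a difference that passed.

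Other genes of the pathway were taken from lists, whose counts are to be read beside the shares of all genes given above. Of 16 further BCL2 family genes, 11 were in the tables. Pmaip1, which encodes the BH3-only protein NOXA, a partner of MCL1 and A1, was higher in Vim-/- neutrophils by a log2 fold change of 0.99 unstimulated (SE 0.156; adjusted p = 1.63e-08) and 1.21 after LPS (SE 0.156; adjusted p = 2.00e-12), and it rose with LPS in Vim-/- neutrophils by 0.70 (adjusted p = 8.44e-05), with 0.48 in Vim+/+ neutrophils (adjusted p = 0.130). Bbc3, which encodes PUMA, was lower in unstimulated Vim-/- neutrophils by a log2 fold change of -0.61 (adjusted p = 0.0192). Centred on genes of like length it stood at -0.49 and did not pass. Bcl2l14 was higher in unstimulated Vim-/- neutrophils by 3.31, with a wide standard error of 1.23 and a baseMean of 55.7, and after LPS it stood at 0.50 and did not pass (adjusted p = 0.818). The other 8 passed in no comparison, and the list's medians were 0.06 and -0.10 with LPS in Vim+/+ and Vim-/- and 0.02 and -0.25 between the genotypes unstimulated and after LPS.

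Of the 17 genes of the apoptosome, the caspases and their inhibitors, all in the tables, LPS raised 1 in each genotype. This was Birc3, which encodes the inhibitor cIAP2, with log2 fold changes of 1.34 in Vim+/+ (adjusted p = 1.56e-16) and 1.10 in Vim-/- neutrophils (adjusted p = 3.40e-16). Between unstimulated genotypes 3 were higher, the caspase inhibitor Xiap by 0.74, the apoptosome scaffold Apaf1 by 0.60 and Birc5, which encodes survivin, by 0.47, and 1 was lower, Aifm1, by a log2 fold change of -0.53, shares near the 12.6% and 6.15% of all genes. Centred on genes of like length, Xiap stood at 0.33, Apaf1 at 0.20 and Birc5 at 0.38, and none of them passed. After LPS 1 was higher, Birc5 by 0.72. No caspase gene passed in any comparison. The list's medians were -0.13 and 0.04 with LPS and 0.18 and 0.09 between the genotypes.

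In the death receptor pathway 11 of 13 genes were in the tables, and LPS raised the same 3 in both genotypes. Tnfrsf1b, which encodes TNF receptor 2, had log2 fold changes of 1.06 in Vim+/+ and 0.97 in Vim-/- neutrophils, Cflar, which encodes the caspase-8 inhibitor c-FLIP, 1.02 and 0.77, and Fas, which encodes a death receptor, 1.51 and 1.13. Between the genotypes 2 were higher in Vim-/- neutrophils in both states: Fas by 1.31 and 0.92, and the necroptosis kinase gene Ripk3 by 1.16 and 1.55. The list's medians were -0.01 and 0.02 with LPS and 0.29 and 0.20 between the genotypes.

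Of 13 genes for the turnover of MCL1 and the control of BH3-only proteins, 12 were in the tables. LPS raised 1 in Vim+/+ neutrophils, Mdm2, the ubiquitin ligase of p53, by a log2 fold change of 0.49, and 0 in Vim-/- neutrophils, in which 2 had an unadjusted p under 0.05. With the statistics divided by their robust spread, Mdm2 passed in Vim-/- and not in Vim+/+ neutrophils, and centred on genes of like length it passed in both. Huwe1, a ubiquitin ligase that marks MCL1 for degradation, and Usp9x, which removes that mark, were both higher in unstimulated Vim-/- neutrophils, by 0.89 (adjusted p = 0.000301) and 1.01 (adjusted p = 0.00196). Centred on genes of like length, they stood at 0.38 and 0.50 and did not pass. After LPS no gene of this list passed, 0 of 12, nor did any reach an unadjusted p under 0.05 (0 of 12). The list's medians were 0.18 and -0.03 with LPS and -0.10 and -0.14 between the genotypes. With the statistics divided by their robust spread, none of the pathway genes named here passed between the unstimulated genotypes, and after LPS Pmaip1 and Ripk3 did.

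**Figure D4:**
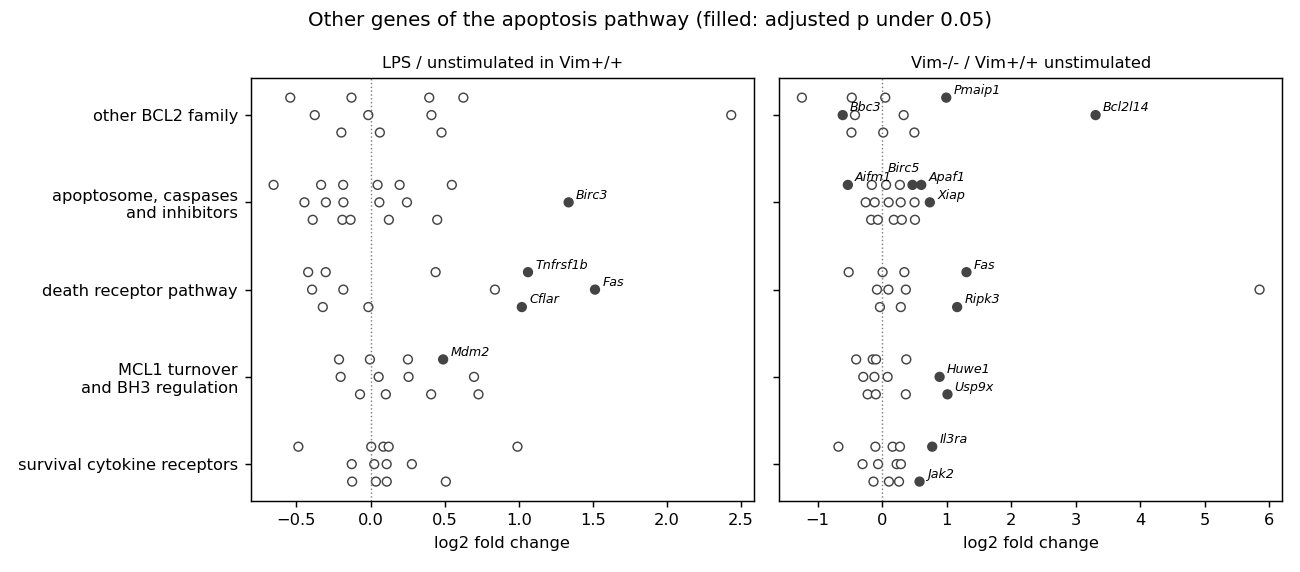
Log2 fold change (x axis) of the other apoptosis genes, by list (rows), with LPS in Vim+/+ neutrophils (left panel) and between unstimulated Vim-/- and Vim+/+ neutrophils (right panel). Each point is 1 gene, offset vertically for legibility, and filled points with names have an adjusted p under 0.05; LPS raised 5 of the listed genes in Vim+/+ neutrophils, all to the right of 0.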

How the data were processed

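Gene expression was measured by polyA RNA sequencing in HoxB8 neutrophils from 2 Vim+/+ and 3 Vim-/- biological replicates, each with and without LPS. The authors trimmed reads with Cutadapt 4.4, aligned and counted them on mm10 with STAR 2.7.10b, added 4 RUVSeq covariates and tested with DESeq2 1.26.0. The annotation and the use of strand are not given in the sources used here. The deposited tables hold, per gene, the authors' baseMean, a signal averaged over all libraries, the log2 fold change and its standard error, the Wald statistic, a score, and the p-value and adjusted p-value; depth is unknown. These are values of the authors' own comparisons, used because the tables hold nothing else. With 10 libraries, 4 groups and 4 covariates, 2 residual degrees of freedom remain, and the Wald test takes no account of how few these are. A count test was not possible.

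Genotype fold changes were given the sign of Vim-/- over Vim+/+. Passing means the authors' adjusted p under 0.05, with no fold threshold. Intervals are 95% normal intervals. The difference of LPS responses was a two-sided normal test with Benjamini-Hochberg adjustment over 13091 genes. It was also run on simulated fold changes drawn as independent normals with the deposited standard errors. That run repeats the assumptions of the test, so it cannot check independence or the few residual degrees of freedom. Lengths are longest transcripts of GENCODE M21, and promoters came from the RefSeq GRCm38.p6 table, which held all 10 members. Python 3.11.15, numpy 2.4.6, scipy 1.17.1, pandas 2.3.3 and matplotlib 3.10.9 were used. The members, lists and tests were chosen with earlier results of these data known. Named genes were all members, Vim, up to 4 genes per pathway list with the smallest adjusted p under 0.05, and the 3 genes with the most similar fold changes to each member that passed with LPS; Aifm1, the marker genes and the genes near the Bcl2a1 copies were named in addition.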

Additional observations from a re-analysis of the deposited data

How the results depend on the processing

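No paired analysis was possible because the deposited tables hold no value per library, so neither a fit with the replicate number as a block nor one without each replicate could be run. Of 280 alternative values for single members, 252 kept their direction and their side of the threshold. Most of the 280 belonged to values that had not passed, so this number says little about the calls. A call was lost in 22, a call was gained in 1, and the direction turned in 5. With a log2 fold change over 1 required as well, the members that passed numbered 1 with LPS in Vim+/+, 0 in Vim-/- and 3 between the unstimulated genotypes, the 3 Bcl2a1 genes. With the Wald statistics centred and divided by their robust spread, they numbered 1 with LPS in Vim+/+, 2 in Vim-/- (Mcl1 and Bcl2a1b), 1 between the unstimulated genotypes and 1 after LPS, Bcl2a1b in each; this setting takes most genes to be unchanged, and it left 188 of 2410 calls over all genes between the unstimulated genotypes. The difference of LPS responses passed for 0 members under every alternative run.

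The directions that turned were all of values that had not passed. After LPS, Bcl2l1 between the genotypes became -0.0024 with rescaled statistics, -0.010 centred on genes with a baseMean of 100 or more and -0.019 centred on genes of like transcript length, and under the last setting Mcl1 became -0.0096, Bax 0.020, Xiap -0.057 and Cflar -0.00092. Under the same setting Apaf1 went from 0.25 to -0.037 and Jak2 from 0.11 to -0.016 with LPS in Vim+/+ neutrophils. Over all genes, centring on like length moved the share of higher calls between the unstimulated genotypes from 67.2% to 53.1%.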

Other observations

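Among 13 genes of the cytokine receptors and kinases that keep neutrophils alive, all in the tables, LPS raised 0 in Vim+/+ neutrophils, where 1 had an unadjusted p under 0.05, and 1 in Vim-/- neutrophils, the kinase gene Pim2, by a log2 fold change of 0.62 (adjusted p = 0.0466, beside 0.51 and 0.308 in Vim+/+). Il3ra, the specific chain of the IL-3 receptor, was higher in Vim-/- neutrophils by 0.77 unstimulated (adjusted p = 0.00903) and 1.31 after LPS (adjusted p = 1.99e-06). Jak2, the kinase that this receptor uses, was higher by 0.58 (adjusted p = 0.000453) and 0.48 (adjusted p = 0.00811), and by 0.34 and 0.36 when centred on genes of like transcript length, neither of which passed. With the statistics divided by their robust spread, Il3ra passed after LPS and not unstimulated, and Jak2 in neither state. The list's medians were 0.09 and -0.03 with LPS and 0.16 and 0.02 between the genotypes, and IL-3 was part of the culture medium.

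Over 10311 other genes whose baseMean was 100 or more, the 4 log2 fold changes closest to those of Bcl2a1b were those of Chrm3, Aph1b and Btg2, at distances of 0.529, 0.606 and 0.731. The nearest to Mcl1 were Mapkbp1, Prmt9 and Prpf40b, at 0.0270 to 0.0759, none of which passed in any comparison. Those nearest to Bcl2l11 were Rbm26, Baz1a and Ahctf1, at 0.0442 to 0.101. The 4 comparisons share their libraries, so these distances describe likeness in this data set alone.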
